A study of Mus musculus with 6 samples.

Results

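The genes described here are 10 components of the pathway by which cells sense foreign or misplaced RNA and respond to type I interferon: Ifih1, Ddx58, Dhx58, Tlr3, Mavs, Tbk1, Irf3, Ifnar1, Ifnar2 and Jak1. They were listed by their role in the pathway, with earlier results of these data known, and all 10 of them have a row of their own among the 22180 genes tested. All samples are Dgcr8-/- mouse embryonic stem cells (ESCs); Dgcr8 is the partner of the Drosha nuclease, and without it canonical miRNAs are not made. The control group (3 samples) had a control hairpin, and the other group (3 samples) had sh-miR-302, a hairpin that supplies mimics of miR-302, a miRNA family of pluripotent cells. The samples of a group are described as independent biological samples. Which member of the family the hairpin encodes, how it is delivered, the strain and the number of ESC lines were not found in the labels. Wild-type cells are not part of the comparison, and the control cells carry the Dgcr8 deletion too. Expression was measured on arrays and is given as log2 levels, on which a difference of 1 is a 2-fold change.

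Double-stranded RNA in the cytosol is bound by the helicases RIG-I (Ddx58) and MDA5 (Ifih1), which are modulated by the related helicase LGP2 (Dhx58) and pass the signal to the mitochondrial adaptor Mavs. TLR3 reads double-stranded RNA in endosomes. Both routes reach the kinase Tbk1, which phosphorylates the transcription factor Irf3 and so turns on interferon genes. Secreted type I interferon is bound by the receptor chains Ifnar1 and Ifnar2, and the kinases Tyk2 and Jak1 attached to them pass the signal to transcription factors that include Irf9. Mouse ESCs are known for a weak interferon response, and miRNAs have been reported to restrain Mavs in them.

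The mature miR-302 sequences listed by RefSeq (build GRCm38.p6) are shown 5′ to 3′, because mimics of this family distinguish the groups. No mature miR-302a-3p was listed, and it is not known whether the hairpin supplies any of the sequences shown. Capitals mark the seed, bases 2 to 8, which miR-302b and miR-302d share and which is shifted by a base in the listed miR-302c.
mmu-miR-302b-3p: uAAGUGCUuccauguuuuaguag
mmu-miR-302d-3p: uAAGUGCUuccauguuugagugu
mmu-miR-302c-3p: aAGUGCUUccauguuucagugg

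With miR-302, 4 of the 10 genes were lower, none was higher and 6 did not pass the test (limma, adjusted p under 0.05). The 4 that fell are the RNA sensor genes Ifih1, Dhx58 and Tlr3 and the receptor chain gene Ifnar2. Among all genes tested, 16.4% were called, 7.18% higher and 9.25% lower. Of the 11090 genes at or above the median level, fitted alone, 2479 were lower, with 2 of the 8 members at that level among them. In that fit the share of members that was lower thus lay near the share of all its genes. The median log2 change of the 10 genes was −0.29, beside 0.0067 over all genes tested. Without miR-302 replicate 1, which lay farthest from its group (mean absolute deviation from the group mean 0.15 over all genes, beside 0.083 to 0.11 on the other arrays), 5 of the 10 were lower, and without any 1 of the other arrays 1 or 2 were. The count over all 22180 genes moved the same way, with 2911 lower without that array and 1043 to 1216 without any 1 of the others. In 6 of the 10 genes, all with the miR-302 arrays below, the groups did not overlap, as in 35.8% of all genes in either direction and 19.0% in that direction.

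**Figure D1:**
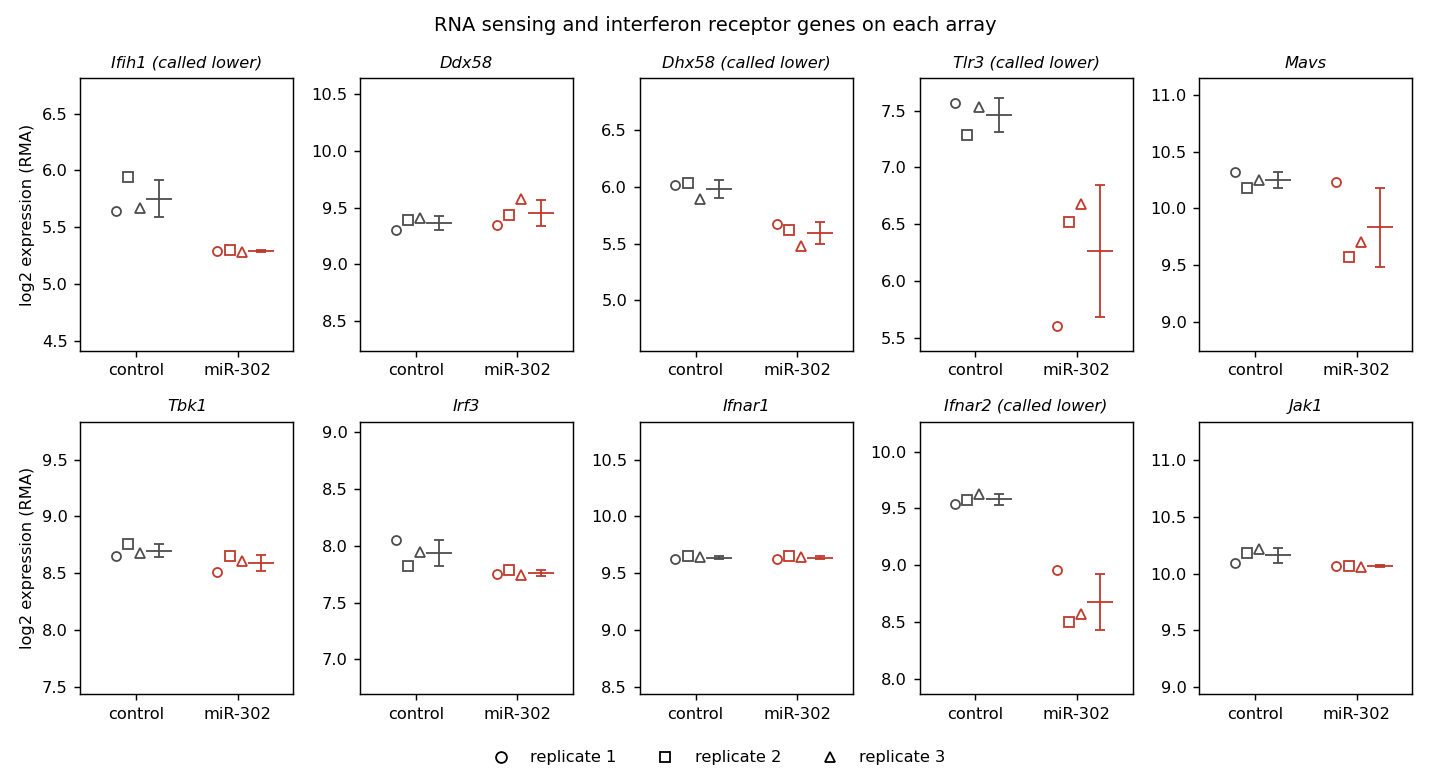
Log2 expression (RMA) of the 10 genes on each array, in a panel per gene, with the control hairpin in grey and miR-302 in red. Symbols mark the replicate number, the dash and bar beside them the group mean and SD (n = 3), and all panels span the same log2 range. Ifih1, Dhx58, Tlr3 and Ifnar2 lay lower on all miR-302 arrays, Ifnar1 lay at the same 3 levels in both groups, and for Mavs only miR-302 replicate 1 lay at the control level.

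Of the cytosolic sensor genes, Ifih1 and Dhx58 fell and Ddx58 was not called. Ifih1, which encodes the sensor of long double-stranded RNA MDA5, had log2 levels of 5.64, 5.94 and 5.67 in control replicates 1, 2 and 3 and of 5.29, 5.30 and 5.28 with miR-302. Every miR-302 array lay below every control array. The mean fell from 5.75 ± 0.17 (SD, n = 3) to 5.29 ± 0.01, a log2 change of −0.46 ± 0.10 (SE), 1.38-fold lower (limma, adjusted p = 0.0211). When the arrays were left out 1 at a time, the call was kept in 3 of 6 fits, and in the others (without control hairpin replicate 3 or miR-302 replicate 2 or 3) adjusted p was at most 0.0710.

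Dhx58, which encodes LGP2, a helicase without signalling domains of its own, was at 6.02, 6.03 and 5.89 in control cells and at 5.67, 5.62 and 5.48 with miR-302. The groups did not overlap here either. The fall was from 5.98 ± 0.08 to 5.59 ± 0.10, a log2 change of −0.39 ± 0.08 (SE), 1.31-fold (limma, adjusted p = 0.0226). Without miR-302 replicate 1 the gene was called (adjusted p = 0.0152), and without any 1 of the other arrays it was not (adjusted p from 0.0504 to 0.0856). The rows of both genes lie below the median level of all genes, 6.16, and how much of their signal is background was not tested.

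Ddx58, which encodes RIG-I, the sensor of short RNAs with a 5′ triphosphate, was at 9.30, 9.39 and 9.41 in control cells and at 9.35, 9.44 and 9.58 with miR-302. The groups overlapped. The change of 0.09 ± 0.08 (SE) on the log2 scale did not pass the test (limma, adjusted p = 0.538), and its 95% interval ran from −0.11 to 0.29. Ddx58 was the only one of the 10 genes with a positive change. The difference Ifih1 minus Ddx58 within an array went from −3.62 ± 0.15 (SD, n = 3) in the controls to −4.17 ± 0.12 with miR-302, and Dhx58 minus Ddx58 went from −3.39 ± 0.12 to −3.87 ± 0.21. The changes in these differences, −0.55 and −0.48, had an exact two-sided permutation p = 0.10 each, the smallest that 3 against 3 samples can give. Adjusted p was 0.10 over the 3 pairs of genes compared in this way. The pairs were chosen after their values were seen, so these p-values add no support.

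The endosomal sensor gene Tlr3 had the largest change of the 10 with all 6 arrays. Its log2 levels were 7.57, 7.29 and 7.53 in control cells and 5.60, 6.52 and 6.68 with miR-302. All miR-302 arrays were below the controls, and replicate 1 was the lowest. The mean fell from 7.46 ± 0.15 (SD, n = 3) to 6.27 ± 0.58, a log2 change of −1.20 ± 0.27 (SE), 2.29-fold lower (limma, adjusted p = 0.0288). Without miR-302 replicate 1 the change was −0.86 with adjusted p = 0.00389, and that of Ifnar2 was then larger (−1.05). The Tlr3 call was also kept without miR-302 replicate 3. It was lost without any 1 of the control arrays or miR-302 replicate 2 (adjusted p up to 0.0987).

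**Figure D2:**
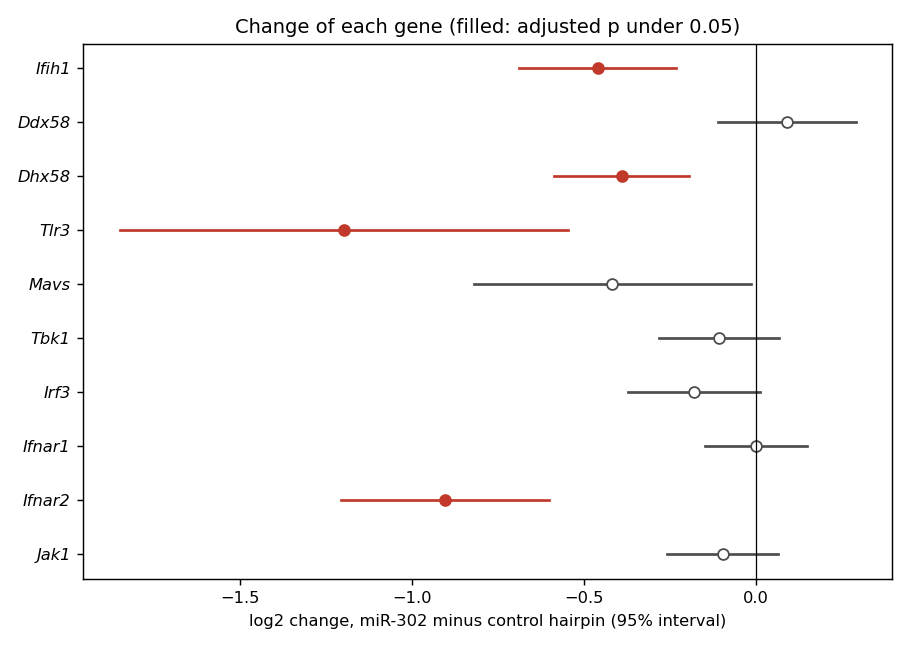
Log2 change of each gene, miR-302 minus control hairpin, with its 95% interval from limma (x axis), for 3 against 3 arrays. Filled red points passed the test. The intervals of Ifih1, Dhx58, Tlr3 and Ifnar2 lie below 0, that of Mavs ends at −0.01 without passing the adjusted threshold, and those of Ddx58, Tbk1, Irf3, Ifnar1 and Jak1 include 0.

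The adaptor, kinase and transcription factor that link sensors to interferon genes were not called. Mavs, the adaptor on mitochondria, was at 10.32, 10.18 and 10.25 in control cells and at 10.23, 9.57 and 9.70 with miR-302. Replicate 1 with miR-302 lay within the control range, and replicates 2 and 3 lay below it. The means were 10.25 ± 0.07 and 9.83 ± 0.35 (SD, n = 3), a log2 change of −0.42 ± 0.17 (SE) with adjusted p = 0.153 (limma). Without miR-302 replicate 1 the change was −0.62 and was called (limma, adjusted p = 0.00386), and without any 1 of the others adjusted p lay between 0.241 and 0.339. Replicate 1 thus stood nearest the controls for Mavs and farthest from them for Tlr3.

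Tbk1, the kinase that activates Irf3, was at 8.65, 8.76 and 8.68 in control cells and at 8.51, 8.65 and 8.61 with miR-302. The groups touched at 8.65, and the log2 change of −0.11 ± 0.07 (SE) did not pass the test (limma, adjusted p = 0.392; 95% interval −0.28 to 0.07). Irf3, the transcription factor that switches on interferon beta, was at 8.05, 7.82 and 7.95 and at 7.75, 7.79 and 7.74. Its miR-302 arrays lay below all controls, but the change of −0.18 ± 0.08 (SE) was not called (limma, adjusted p = 0.190; 95% interval −0.37 to 0.01). Neither gene was called when any single array was left out.

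Of the chains of the type I interferon receptor, Ifnar2 fell and Ifnar1 had equal means. Ifnar2, the chain that binds interferon tightly and carries Jak1, was at 9.54, 9.57 and 9.63 in control cells and at 8.96, 8.50 and 8.57 with miR-302. All miR-302 arrays lay well below the controls, replicate 1 least so. The mean fell from 9.58 ± 0.05 (SD, n = 3) to 8.68 ± 0.25, a log2 change of −0.90 ± 0.13 (SE), 1.87-fold lower (limma, adjusted p = 0.00580). It was the only one of the 10 whose call held whichever array was left out, with changes from −1.05 to −0.82 and adjusted p from 0.000414 to 0.0318.

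Ifnar1, the chain that carries Tyk2, was at 9.62, 9.65 and 9.64 in control replicates 1, 2 and 3 and at 9.62, 9.65 and 9.64 in the miR-302 replicates. The means were thus equal at 9.64 ± 0.02 (SD, n = 3), a change of 0 with a 95% interval from −0.15 to 0.15 (limma, adjusted p = 1). The difference Ifnar2 minus Ifnar1 within an array was −0.08, −0.08 and −0.01 in control cells and −0.66, −1.15 and −1.07 with miR-302. All miR-302 arrays lay below all controls in this difference, and its change of −0.90 had an exact two-sided permutation p = 0.10, again the smallest possible (adjusted p = 0.10 over the 3 pairs). As Ifnar1 had equal means, this change is that of Ifnar2. The pair was chosen with its values known, so the p-value adds no support.

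Both receptor genes lie on chromosome 16, where the RefSeq annotation (GRCm38.p6) places Ifnar2, Il10rb, Ifnar1 and Ifngr2 next to each other in this order among protein-coding genes. Il10rb, a shared chain of the interleukin-10 and interferon lambda receptors, changed by −0.26 ± 0.13 (SE; limma, adjusted p = 0.232). Ifngr2, a chain of the interferon gamma receptor, changed by −0.11 ± 0.11 (SE; adjusted p = 0.571). Of these 4 neighbours Ifnar2 was thus the only one called. Il10rb and Ifngr2 were picked for their position, with their values known.

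Jak1, the kinase bound to Ifnar2, was at 10.09, 10.18 and 10.22 in control cells and at 10.07, 10.07 and 10.06 with miR-302. The groups did not overlap, by a margin of 0.02, and the log2 change of −0.10 ± 0.07 (SE) was not called (limma, adjusted p = 0.402; 95% interval −0.26 to 0.07). Tyk2, its counterpart on Ifnar1, changed by 0.05 ± 0.07 (SE; adjusted p = 0.733). Tyk2 is not among the genes named by rule and was picked with its value known.

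**Figure D3:**
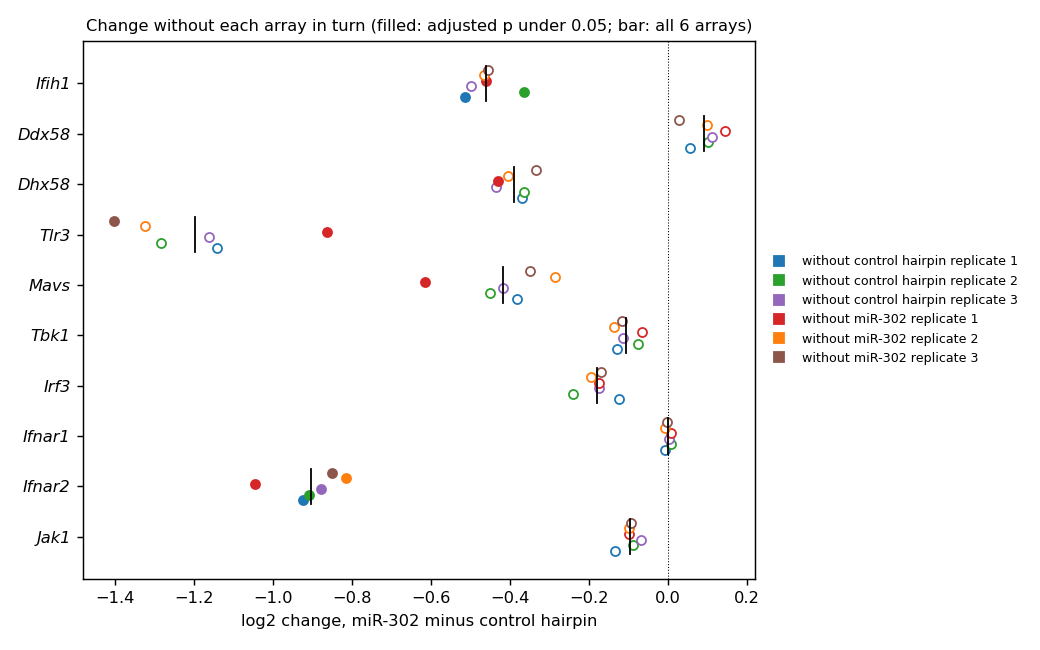
Log2 change of each gene (x axis) when each of the 6 arrays was left out in turn, coloured by the array left out; filled points passed the test and the black bar is the change with all 6 arrays. Ifnar2 was called in all 6, Ifih1 in 3, Tlr3 in 2, Dhx58 and Mavs in 1, and Ddx58, Tbk1, Irf3, Ifnar1 and Jak1 in none.

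Promoter windows were examined for the element that binds interferon-activated factors, since these sensor genes are themselves known to be induced by interferon. The RefSeq promoter table (GRCm38.p6; 250 bases before to 50 after the start) holds a window for 9 of the 10 genes, all but Dhx58. The core of this element, GAAA followed after any 2 bases by GAAA, was the only motif searched, on both strands, and was found in 3.44% of 32851 windows and in 2 of the 9. These 2 belong to Ifih1, which fell, and Ddx58, which was not called. They are shown with the window of Ifnar2, the gene with the smallest adjusted p, which holds no match. Capitals mark the match, on the printed strand for Ifih1 and on the opposite strand for Ddx58.
Ifih1, chr2:62646206-62646505, minus strand: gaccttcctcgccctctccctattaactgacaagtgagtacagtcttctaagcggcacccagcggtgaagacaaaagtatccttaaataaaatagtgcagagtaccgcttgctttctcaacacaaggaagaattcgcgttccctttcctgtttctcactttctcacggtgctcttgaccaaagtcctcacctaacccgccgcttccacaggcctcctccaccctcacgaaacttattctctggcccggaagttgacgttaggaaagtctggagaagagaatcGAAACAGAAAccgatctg
Ddx58, chr4:40239776-40240075, minus strand: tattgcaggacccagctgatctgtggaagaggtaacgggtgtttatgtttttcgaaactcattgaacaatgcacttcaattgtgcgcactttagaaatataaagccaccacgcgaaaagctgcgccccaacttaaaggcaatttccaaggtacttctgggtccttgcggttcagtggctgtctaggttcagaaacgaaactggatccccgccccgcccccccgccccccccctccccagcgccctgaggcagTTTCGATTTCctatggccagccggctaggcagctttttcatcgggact
Ifnar2, chr16:91372533-91372832, plus strand: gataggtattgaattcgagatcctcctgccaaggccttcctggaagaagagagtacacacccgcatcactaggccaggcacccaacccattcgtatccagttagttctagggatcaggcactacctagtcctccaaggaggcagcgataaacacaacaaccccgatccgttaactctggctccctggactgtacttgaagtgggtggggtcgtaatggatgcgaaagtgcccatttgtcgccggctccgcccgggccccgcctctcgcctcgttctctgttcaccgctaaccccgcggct
In both windows the match lies within the 50 bases after the annotated start. A match of these letters is a description of the sequence, and the windows of Mavs, Tlr3, Tbk1, Irf3, Ifnar1 and Jak1 do not hold them.

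Other genes of the pathway were counted by role. Of 29 listed partners and regulators of the sensing route, 23 were measured, of which 2 were lower, none higher and 21 not called (median log2 change −0.09). This share lay near that over all genes tested, of which 9.25% were lower, the background for the counts by role that follow. Of the 11090 genes at or above the median level, fitted alone, a larger share was lower (2479 genes). In that fit 3 of 20 sensing partners, 8 of 12 other sensors and 10 of 18 receptor signalling genes were lower. So were 13 of 14 interferon-stimulated genes. Rnf125, a ubiquitin ligase that marks RIG-I and MDA5 for degradation, fell from 10.48 ± 0.02 (SD, n = 3) to 9.57 ± 0.15, a log2 change of −0.91 ± 0.09 (SE; limma, adjusted p = 0.00200), and was called without each array in turn. Cyld, a deubiquitinase that restrains RIG-I signalling, fell by 0.25 on the log2 scale (SE 0.06, adjusted p = 0.0385), and kept its call only when miR-302 replicate 1 was the array left out. The Tbk1-related kinase gene Ikbke changed by −0.50 ± 0.15 and the NOD-like receptor gene Nlrc5 by −0.26 ± 0.09 (SE), and neither was called (adjusted p = 0.0631 and 0.0956). Without miR-302 replicate 1, 5 of the 23 were lower, and without any 1 of the others 1 was.

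Among 17 measured sensors of nucleic acids outside the 10 genes, with their adaptors, 5 were lower, none higher and 12 not called (median log2 change −0.23). The largest fall was that of Zbp1, a sensor of Z-form nucleic acid, from 9.42 ± 0.08 to 7.39 ± 0.17 (SD, n = 3), 4.08-fold (limma, adjusted p = 0.000229). The helicase gene Ddx60 fell by 1.26 on the log2 scale, Cgas, the sensor of cytosolic DNA, by 0.71, and Unc93b1, which carries Tlr3 and related receptors to endosomes, by 0.68 (adjusted p = 0.000978, 0.00458 and 0.00480). These 4 kept their call whichever array was left out. The Ddx60 row lay at 5.12 ± 0.01 in the controls and 3.85 ± 0.19 with miR-302 (SD, n = 3), below the median level of all genes, 6.16. How much of its signal is background was not tested. Samhd1, a nucleotide hydrolase, fell by 0.42 and kept its call only without miR-302 replicate 1. Without that array 7 of the 17 were lower, and without any 1 of the others 4 were.

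Interferon receptor chains and their signalling genes beyond the 10 were lower in 9 of 19 measured genes and higher in 1, with 9 not called (median log2 change −0.33). The transcription factor genes Irf1 and Irf9 went from 8.44 ± 0.07 to 7.62 ± 0.09 and from 9.04 ± 0.03 to 8.02 ± 0.24 (SD, n = 3), log2 changes of −0.82 ± 0.08 and −1.03 ± 0.12 (SE; limma, adjusted p = 0.00183 and 0.00352). Ifngr1, the ligand-binding chain of the interferon gamma receptor, fell by 0.64 and Ifnlr1, that of the interferon lambda receptor, by 0.91 on the log2 scale (adjusted p = 0.00311 and 0.00318). These 4 were called without each array in turn. A chain of each of the interferon receptors thus fell (Ifnar2, Ifngr1 and Ifnlr1), while the second chains Ifnar1, Ifngr2 and Il10rb were not called. The gene that was higher was Ptpn11, a tyrosine phosphatase (log2 change 0.55 ± 0.13 SE, adjusted p = 0.0350), which was named with its value known and was called without miR-302 replicate 1 but not without any other array. Without that array 11 of the 19 were lower and 1 higher, and without any 1 of the others 5 to 8 were lower and none higher.

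**Figure D4:**
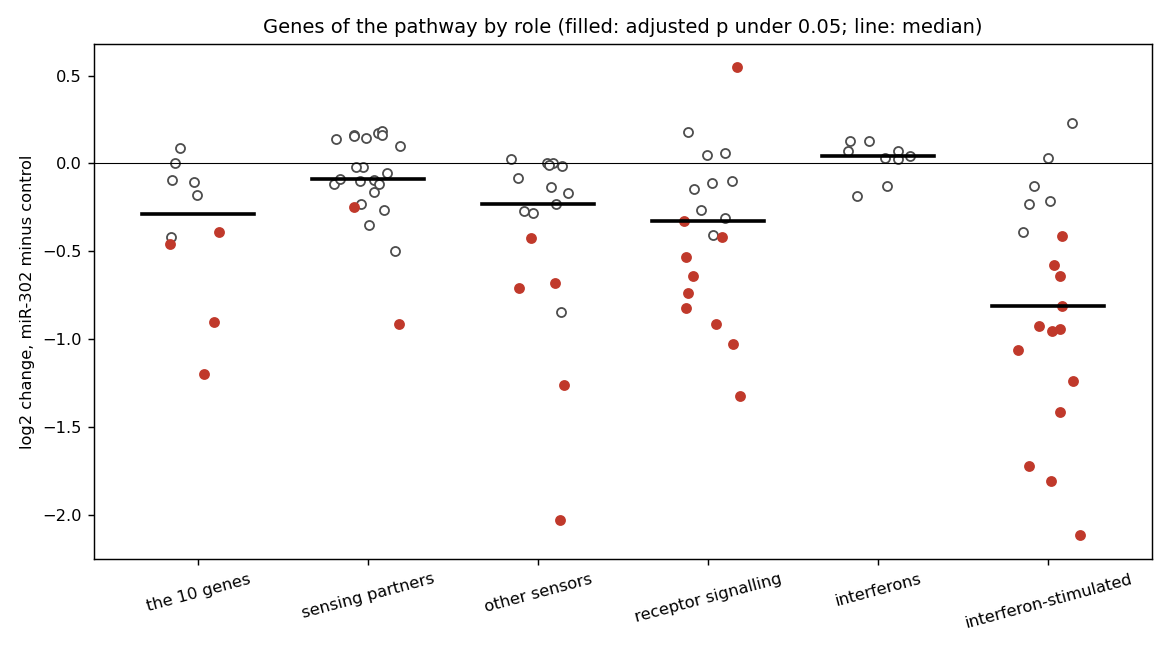
Log2 change, miR-302 minus control hairpin (y axis), of the 10 genes and of the other measured genes of the pathway by role, a point per gene; filled points passed the test and the line is the median. Medians were −0.29 for the 10 genes, −0.09 for sensing partners, −0.23 for other sensors, −0.33 for receptor signalling, 0.04 for interferons and −0.81 for interferon-stimulated genes.

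At the ends of the pathway, none of 9 measured interferon genes was called (median 0.04), while 13 of 19 measured interferon-stimulated genes were lower and none higher (median −0.81). Among the interferons, 0 had an unadjusted p under 0.05 as well, and 0 were called in the other limma fits and the unmoderated test. Only 4 of the 9 lay at or above the median level of all genes, beside 14 of the 19 interferon-stimulated genes. A change in the interferons of low level could thus have been missed. Ifnb1 was at 3.21, 3.16 and 3.27 in control cells and at 2.98, 3.08 and 3.20 with miR-302, a level near the low end of all rows, and how much of it is background was not tested. Ifna4, Ifnl2 and Ifnl3, named with it for the smallest p, changed by 0.13 ± 0.13, 0.13 ± 0.14 and −0.19 ± 0.11 (SE; limma, adjusted p = 0.571, 0.599 and 0.335), and such genes have near-identical copies, so their rows are uncertain. Of the stimulated genes, Oasl2 and Oasl1, members of the oligoadenylate synthetase family, fell by 1.81 and decreased by 1.72 on the log2 scale, the antiviral enzyme gene Rsad2 by 1.06 and the membrane protein gene Ifitm2 by 0.93 (adjusted p from 0.000264 to 0.000868). All 4 kept their call without each array in turn. With each array left out in turn 10 to 13 of the 19 were lower.

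Markers of other cells were measured beside these genes. Of 8 trophectoderm markers 6 were higher with miR-302. The log2 of the summed level of all 8 lay between 10.35 and 10.43 in the controls and between 11.82 and 13.21 with miR-302. With miR-302 this sum was carried mostly by the keratin genes Krt8 and Krt18. Krt8 went from 8.22 to 11.54 and Krt18 from 7.09 to 11.12 (both named with their values known). Cdx2, Eomes, Gata3 and Ascl2 rose by 0.85 to 1.82 on the log2 scale, while Elf5 and Tfap2c were not called. None of 7 ESC markers and none of 9 immune cell markers was called, and of 9 fibroblast markers, which would show feeder cells, Thy1 was lower (log2 change −0.38 ± 0.09 SE; limma, adjusted p = 0.0349; named with its value known). The summed level of immune markers was 10.14 to 10.27 in the controls and 10.32 to 10.88 with miR-302, and it was carried by Cd68 (named with its value known), at 9.86 ± 0.10 and 10.23 ± 0.40 (SD, n = 3) and not called, while the other 8 rows lay at 6.04 or below on all arrays. Ptprc, which defines blood cells, lay between 3.16 and 3.64 on all arrays. Fibroblast markers summed to 8.79 to 8.85 in the controls and to 8.87 to 9.04 with miR-302, higher on all miR-302 arrays. Their median log2 change was 0.15, opposite in direction to that of Thy1. ESC markers summed to 14.20 to 14.23 in the controls and to 14.04 to 14.33 with miR-302. The part of trophectoderm-like gene expression in the falls above was not tested, and in bulk samples fewer cells that express a gene and less of its RNA per cell cannot be told apart. Rows of the 4 genomic miR-302 genes Mir302a to Mir302d changed by 0.40 to 0.91 on the log2 scale and were not called (limma, adjusted p from 0.0585 to 0.213). In all 4 rows miR-302 replicates 2 and 3 lay above every control, while replicate 1 lay within the control range for Mir302a, Mir302c and Mir302d and, at 4.58 beside at most 4.43, just above it for Mir302b. Whether they can see RNA from the hairpin was not tested. Dgcr8 was not analysed here, as its row lists a second gene too.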

How the data were processed

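Per the submitters' processing notes, RMA was used by the authors, who deposited 1 value per row and sample, taken here as log2 expression (the base is not stated; RMA gives base 2). RMA makes array distributions alike (medians 5.60 to 5.62), so a shift of all genes cannot be seen. Software version, build, detection calls and batches were not used here. Of 33649 rows, 23521 list a single gene in the platform annotation, and the row with the highest mean stood for each of 22180 genes. Each of the 10 genes has 1 row, and all 10 matched RefSeq (GRCm38.p6) by Entrez identifier. Columns without a sample: 0.

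Tests used limma 3.58.1 under R 4.3.3: lmFit, then eBayes, two-sided, with Benjamini-Hochberg adjustment over 22180 genes and a threshold of 0.05. A log2 change is the miR-302 mean minus the control mean, SE is limma's moderated SE, and the 95% intervals use it. The members and gene lists were chosen with earlier results of these data known. The rule names all 10 genes and, of each list, the 4 genes with the smallest p, or all called where 5 or fewer were. The number of arrays limits precision. Groups and replicate numbers came from the sample titles. Deviations of same-numbered samples correlated at 0.0085 to 0.019 over genes, so the numbers were not taken as pairs. In simulated data with independent noise, 62, 70 and 68 of 22180 genes were changed 1.5-fold, 2-fold and 4-fold. Of these, 32.3%, 90.0% and 94.1% were recovered, with 12 of 159 calls false. The simulation had no outlying array and few changed genes, while 16.4% of genes were called in the data. Its rates therefore need not hold for this comparison. Alternatives were the replicate block, leaving out each array, a filter on level, trend and robust prior, quantile normalization, median centring, mean of rows, every row on its own, an unmoderated test and array weights. Figures used matplotlib 3.10.9.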

Additional observations from a re-analysis of the deposited data

How the results depend on the processing

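None of the 10 genes was called higher under any alternative run, and Ifnar2 was called lower under all of them. The count of the 10 genes called lower was 4, and 2 with the filter on level, where Ifih1 and Dhx58 are not tested, and 1 with the unmoderated test. It was 1 to 5 without 1 array. Array weights added Mavs (adjusted p = 0.0122). Over all genes, 1592 were higher and 2051 lower, 964 and 1329 with the replicate block, and 998 and 1343 with the unmoderated test. With array weights 2617 were higher and 3004 lower, and with trend and robust prior 2019 and 2572. With the filter on level 1815 were higher and 2479 lower, of 11090 genes tested. Without 1 array 685 to 2484 were higher and 1043 to 2911 lower. With the replicate block Tlr3 lost its call (adjusted p = 0.0585), as did Cyld, Samhd1 and Ptpn11, 3 of the 10 genes were lower, and own-numbered samples correlated best for 2 of 3 numbers. Sensing partners called lower were 2, and 1 with the replicate block or quantile normalization and 5 with array weights; without 1 array they were 1 to 5. Other sensors called lower were 5, and 8 with the filter on level (12 tested), with trend and robust prior, and with array weights. The counts of all genes called lower rose in these settings too. Without 1 array the other sensors called lower were 4 to 7. Receptor signalling genes called lower were 9, 5 with the unmoderated test and 5 to 11 without 1 array, and the 1 called higher was 0 with the replicate block or the unmoderated test and 0 to 1 without 1 array. Interferon-stimulated genes called lower were 13, 8 with the unmoderated test and 10 to 13 without 1 array. The cause of these moves was not tested. Median centring and quantile normalization left the 10 genes' calls as they were. Without detection calls, how much of the signal of low rows is background was not tested.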

Other observations

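Ifnar1 was the only one of 22180 genes whose 3 values, at 2 decimals, were the same set in both groups; 143 genes (0.645%) had equal group means (sums of the 3 values within 0.001). Over the 6 arrays the genes most like Ifnar2 were Camk1, Gpt2 and Tgfbi (Pearson r of 0.999, 0.999 and 0.999, n = 6 arrays in 2 groups), and 157 genes reached 0.99.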
